A study of Mus musculus with 6 samples.

Results

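Slc9a3, Ttr, Alx4 and Cideb are genes whose usual sites of expression lie outside the heart, and all 4 were higher in hearts of JMJD2A-transgenic mice than in wild-type hearts on the arrays examined here. They were chosen from the measured values, as genes typical of gut, liver or limb that were higher in the 3 transgenic than in the 3 wild-type arrays, so their genotype differences describe the choice and are not tested. They are 4 of 19057 genes with a probe in the table and are measured by 7 of its 45281 probes. All 4 were among the 11167 genes bright enough to be tested, although the mean used for that filter includes the transgenic arrays in which these genes are bright.

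Each of the 6 samples is total RNA from the heart of 8-week-old mice of the FvB background, taken 3 weeks after surgery and hybridized to 1 Illumina bead array. The groups were JMJD2A-transgenic mice after thoracic aortic constriction (TAC, a surgical narrowing of the aorta that loads the left ventricle with pressure; 2 arrays), JMJD2A-transgenic mice after sham surgery (1 array), wild-type mice after TAC (2 arrays) and wild-type mice after sham surgery (1 array). The age is the sample labels', whereas the series text gives it in years. The transgene is described as heart specific. The labels name neither its promoter nor the number of transgenic lines, and do not say whether an array holds 1 animal or a pool, so p-values measure only the spread between these samples, which may be technical.

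JMJD2A, encoded by Kdm4a, is a demethylase that removes methyl groups from lysines of histone tails, marks that help to set whether a gene is silent or transcribed. Slc9a3 encodes NHE3, the sodium-proton exchanger of the apical membrane of gut and kidney tubule epithelium, which takes up sodium and acidifies the lumen. Ttr encodes transthyretin, a carrier of thyroxine and of retinol-binding protein that liver and choroid plexus secrete in large amounts. Alx4 encodes a paired-type homeodomain transcription factor of limb bud and craniofacial mesenchyme, and Cideb encodes a lipid droplet protein of liver and small intestine with a part in loading lipoproteins with lipid.

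The promoter table used here gave a window of 250 bases before to 50 bases after the gene start for 2 of the 4 genes, Slc9a3 and Cideb. Both windows are shown because no window was given for the other genes, and the 2 differ in base composition. That Slc9a3 and Cideb were both higher in transgenic hearts is how they were chosen and does not link the windows. The sequences are RefSeq's for GRCm38.p6, written along the gene's own strand, at chr13:74121163-74121462 (plus strand) for Slc9a3 and chr14:55758375-55758674 (minus strand) for Cideb. Capitals mark the GC box, the letters GGGCGG on either strand.
Slc9a3: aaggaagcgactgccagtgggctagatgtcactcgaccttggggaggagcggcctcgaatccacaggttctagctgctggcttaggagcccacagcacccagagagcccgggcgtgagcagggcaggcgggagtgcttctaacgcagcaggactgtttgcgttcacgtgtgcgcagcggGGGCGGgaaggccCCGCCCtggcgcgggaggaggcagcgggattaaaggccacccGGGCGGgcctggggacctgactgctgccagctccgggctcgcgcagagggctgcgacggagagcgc
Cideb: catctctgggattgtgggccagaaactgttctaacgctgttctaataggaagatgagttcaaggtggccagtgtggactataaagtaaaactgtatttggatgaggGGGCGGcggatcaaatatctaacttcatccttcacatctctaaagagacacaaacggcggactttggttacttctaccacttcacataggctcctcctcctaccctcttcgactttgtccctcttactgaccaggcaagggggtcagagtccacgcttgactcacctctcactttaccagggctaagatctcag
The Slc9a3 window was 68.7% G and C and held 25 CG dinucleotides, more than 81.6% of the 32851 promoter windows of this length, whose median was 7. The Cideb window was 48.0% G and C with 7 CG dinucleotides. GC boxes occurred 3 times near Slc9a3, the closest 10 bases before the start, and once near Cideb, 138 bases before it, while 35.7% of all windows held at least 1. The letters TATAAA were found once in the Cideb window, 166 bases before the start, and not in that of Slc9a3, against 13.6% of all windows. An E-box (CANNTG) occurred once in the Slc9a3 window and not in that of Cideb, where 72.3% of windows held one. Neither window held CCAAT (37.4% of windows), a CArG box (1.63%) or a MEF2 box with any bases at its 4 central positions (3.69%). Both strands were searched, the motifs do not overlap in these windows, and a match is a description of letters, not of a bound site.

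The deposited values are intensities on a linear scale. The array medians were 56.3 to 56.4 and the upper quartile was 126 on every array, and pairs of arrays correlated at r = 0.984 to 0.994 over all probes on the log2 scale. Of the 11 cardiomyocyte markers with a probe, all were bright enough to be tested and 0 passed between genotypes in limma (3 at an unadjusted p under 0.05; 0.949% and 11.5% of all tested genes), and their summed intensity was 151104 to 163038 on transgenic and 152021 to 159317 on wild-type arrays. Kdm4a does not check the genotype labels: its tested probe read log2 6.45 to 6.75 on transgenic and 6.51 to 6.70 on wild-type arrays (difference 0.01 ± 0.12 SE, limma adjusted p = 0.994). A second Kdm4a probe read log2 7.03 in transgenic sham and 6.86 and 6.32 in transgenic TAC hearts, against 6.49 in wild-type sham and 6.44 and 6.40 in wild-type TAC hearts, so that 2 transgenic arrays lay above and 1 below all wild-type arrays. The third probe read 5.41 to 5.67 on transgenic and 5.49 to 5.80 on wild-type arrays, and no file places the 3 probes relative to the transgene. Xist, transcribed in female cells, was low on the transgenic sham array (log2 5.41) and the second wild-type TAC array (5.38) and 10.36 to 11.03 on the other 4, while the labels give no sex.

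The tested probe of Slc9a3, the sodium-proton exchanger, read 374 in transgenic sham and 403 and 432 in transgenic TAC hearts, against 72.1 in wild-type sham and 86.9 and 88.9 in wild-type TAC hearts. The 3 transgenic arrays lay within a narrow band, and the lowest of them was 4.21 times the highest wild-type array. The means were 403 ± 29.0 in transgenic and 82.6 ± 9.18 in wild-type hearts (SD, n = 3 each), and the model of surgery plus genotype gave a log2 difference of 2.29 ± 0.13 (SE), or 4.89-fold.

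Ttr, the thyroxine carrier, has 1 probe. It read 259 in transgenic sham and 336 and 218 in transgenic TAC hearts, against 63.4 in wild-type sham and 71.5 and 57.8 in wild-type TAC hearts. The transgenic TAC pair straddled the transgenic sham array, and the wild-type TAC pair straddled the wild-type sham array. Means were 271 ± 59.7 in transgenic and 64.2 ± 6.87 in wild-type hearts (SD, n = 3 each), a log2 difference of 2.06 ± 0.18 (SE) or 4.17-fold.

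The tested probe of Alx4, the limb transcription factor, read 202 in transgenic sham and 298 and 308 in transgenic TAC hearts, against 81.1 in wild-type sham and 61.2 and 55.8 in wild-type TAC hearts. The sham arrays were the nearest to each other of any transgenic and wild-type array, since the transgenic sham value was the lowest of its genotype and the wild-type sham value the highest of its own. Means were 269 ± 58.8 in transgenic and 66.0 ± 13.3 in wild-type hearts (SD, n = 3 each), a log2 difference of 2.02 ± 0.21 (SE) or 4.06-fold. The ratio of transgenic to wild-type intensity was 5.18 between the geometric means after TAC and 2.49 between the sham arrays.

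Cideb, the lipid droplet gene, has 1 probe, which read 310 in transgenic sham and 303 and 243 in transgenic TAC hearts, against 92.5 in wild-type sham and 88.4 and 100.3 in wild-type TAC hearts. It had the smallest ratio of the 4, with means of 285 ± 36.3 in transgenic and 93.7 ± 6.03 in wild-type hearts (SD, n = 3 each). Its log2 difference was 1.60 ± 0.15 (SE), or 3.03-fold.

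**Figure D1:**
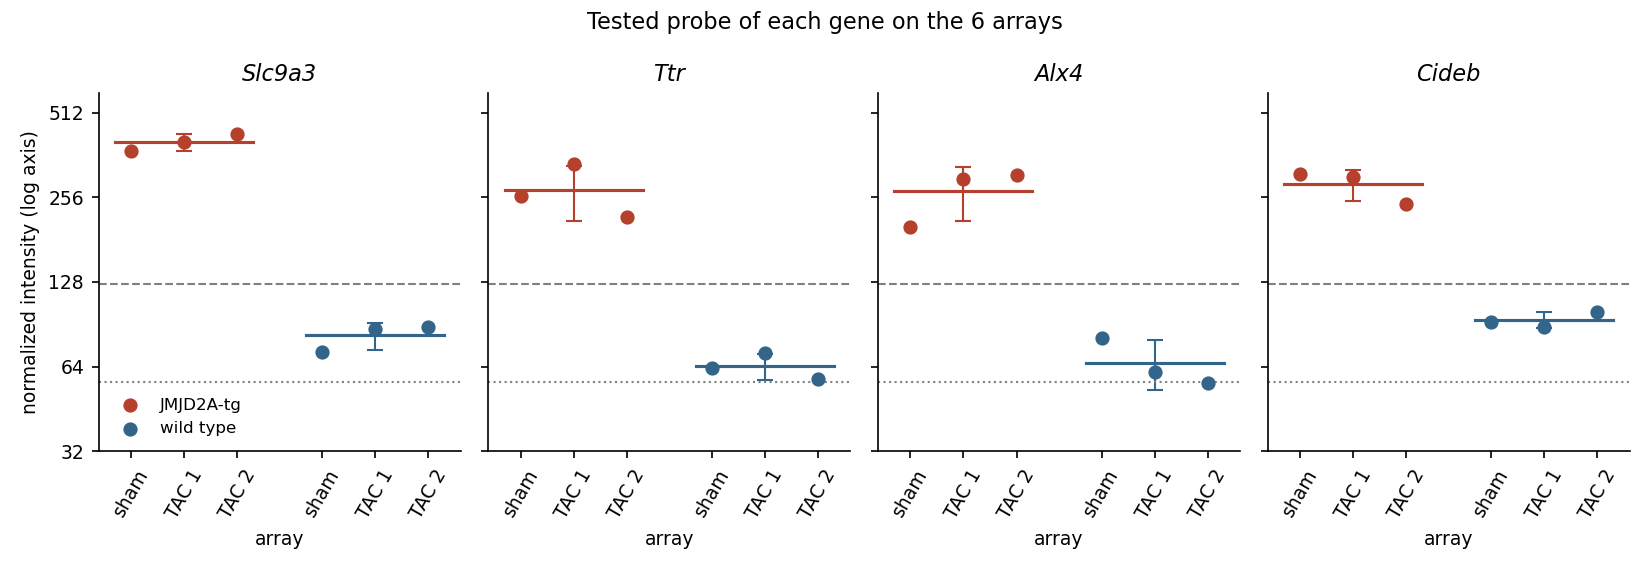
Normalized intensity (log axis) of the tested probe of each gene on each array, transgenic arrays in red and wild-type arrays in blue, with the group mean (horizontal line) and SD (bar, n = 3); the dotted line is the array median (56.4) and the dashed line the upper quartile (126). All transgenic arrays lie above the upper quartile, between 202 and 432, and all wild-type arrays lie below it, between 55.8 and 100.3.

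Ordered by the signed genotype difference, from the largest increase in transgenic hearts down, Slc9a3 ranked 5th, Ttr 6th, Alx4 8th and Cideb 12th among the 11167 genes tested. The transgenic arrays did not overlap the wild-type arrays for any of the 4, which was the case for 7.59% of tested genes in this direction, and 0.949% of tested genes were called in either direction and 0.663% were called higher (limma with Benjamini-Hochberg adjustment, adjusted p under 0.05). A log2 difference above 1 was found for 0.439% of tested genes. Because the genes were chosen on this difference, nothing is read from these shares. With the 2 arrays of low Xist left out, the log2 differences were 2.26 for Slc9a3, 1.92 for Ttr, 2.31 for Alx4 and 1.62 for Cideb. These values set the 2 transgenic TAC arrays against the first wild-type TAC array alone, because the surgery term takes up the only sham array left. Between those arrays of low Xist alone, the transgenic sham value was 4.21 times the second wild-type TAC value for Slc9a3, 4.49 times for Ttr, 3.61 times for Alx4 and 3.09 times for Cideb.

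The wild-type values lie near the dim end of the arrays. As a gauge of background, chosen after the values were seen, the 1276 probes of olfactory receptor genes had medians of 45.6 to 46.1 and 95th percentiles of 59.1 to 61.9 by array. Slc9a3 and Cideb exceeded that 95th percentile on 3 of 3 transgenic and 3 of 3 wild-type arrays. Ttr and Alx4 exceeded it on 3 of 3 transgenic and 2 of 3 wild-type arrays. Background was not subtracted here, and whether the deposited values still hold background is not stated. If they do, the folds above understate a change from such levels. With the 5th percentile of each array subtracted, the ratios were 8.70 for Slc9a3, 9.71 for Ttr, 9.43 for Alx4 and 4.57 for Cideb. Those of Ttr and Alx4 rest on wild-type values near the gauge and depend on the amount subtracted.

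Slc9a3 and Alx4 each have dimmer probes that did not follow the tested one. The second Slc9a3 probe read 44.0, 38.1 and 44.9 on the transgenic sham and TAC arrays, against 43.4, 41.9 and 40.8 on the wild-type sham and TAC arrays. It lay under the gauge of background on all 6 arrays, and the genotypes overlapped. One of the other Alx4 probes read 40.3, 47.5 and 43.0 on transgenic sham and TAC arrays, against 43.7, 45.9 and 37.4 on wild-type sham and TAC arrays. The remaining Alx4 probe read 59.4, 61.6 and 58.3 on transgenic arrays, against 52.7, 66.9 and 49.3 on wild-type arrays in the same order. Averaged over a gene's probes, the log2 difference was 1.15 ± 0.08 for Slc9a3 and 0.72 ± 0.11 for Alx4 (SE). The files used here do not place the probes on the transcript, so the transgenic signal of these 2 genes rests on 1 probe each, as it does for Ttr and Cideb, which have no other.

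**Figure D2:**
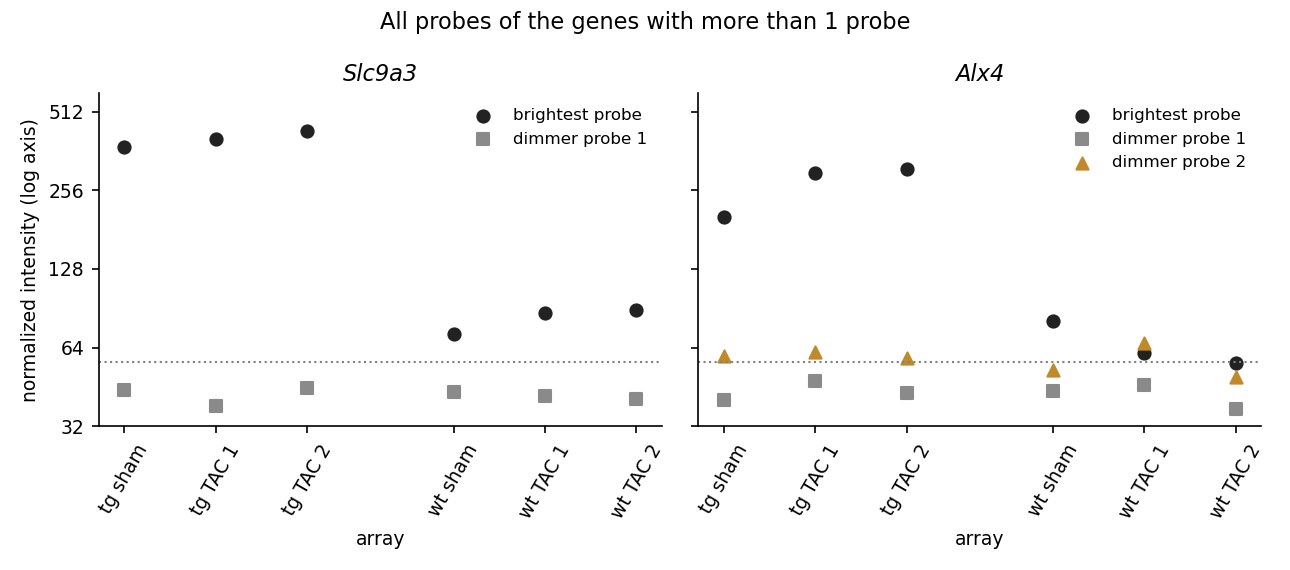
Normalized intensity (log axis) of every probe of Slc9a3 (2 probes) and Alx4 (3 probes) on each array, transgenic (tg) arrays left and wild-type (wt) arrays right; each symbol is 1 probe and the dotted line is the array median (56.4). The brightest probe separates the genotypes, while the dimmer probes stay between 37.4 and 66.9 on all arrays.

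Whether pressure overload changed these genes was tested with surgery, which played no part in choosing them. None of the 4 passed for TAC against sham over both genotypes in limma (0 of 4 adjusted, 0 of 4 at an unadjusted p under 0.05; background 0.00895% of tested genes adjusted and 9.26% unadjusted). Slc9a3 had a log2 difference of 0.22 ± 0.14 (SE, 4 TAC against 2 sham arrays, limma adjusted p = 0.678). Within each genotype both of its TAC arrays read higher than the sham array. Ttr stood at 0.04 ± 0.19 (limma adjusted p = 0.967), Alx4 at 0.06 ± 0.22 (limma adjusted p = 0.956) and Cideb at -0.08 ± 0.16 (limma adjusted p = 0.907).

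Within genotypes, Alx4 was the one gene of the 4 with both TAC arrays above the sham array in one genotype and both below it in the other. Its TAC minus sham difference was 0.59 on the log2 scale in transgenic hearts and -0.47 in wild-type hearts. That of Cideb was -0.19 in transgenic and 0.025 in wild-type hearts, where the TAC arrays straddled the sham array. For Alx4 the difference between these differences was 1.06 ± 0.31 (SE, limma unadjusted p = 0.00833, adjusted p = 1.00) and did not pass. Of the 11167 genes tested, 0% passed this test and 1.64% reached an unadjusted p under 0.05. TAC arrays lay on opposite sides of their sham array in this way for 14% of tested genes. For the other 3 genes the difference of differences was -0.13 ± 0.34 for Slc9a3, 0.04 ± 0.42 for Ttr and -0.21 ± 0.36 for Cideb (SE, limma adjusted p = 1.00 each). Each sham group is 1 array, assumed to vary like the TAC arrays. The transgenic sham and second wild-type TAC arrays, both of low Xist, enter the Alx4 contrast with the same sign, and with log2 Xist as a covariate the value was 0.85 ± 0.68 (SE).

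**Figure D3:**
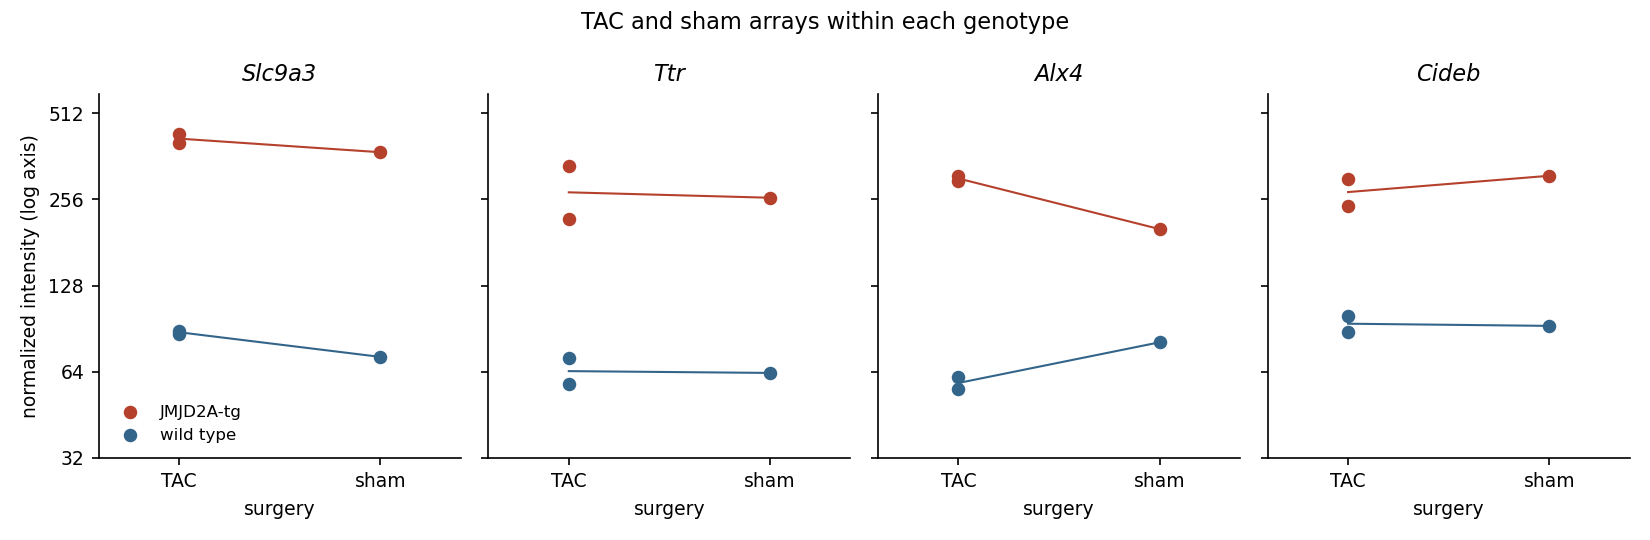
Normalized intensity (log axis) of the tested probe after TAC (2 arrays per genotype) and after sham surgery (1 array per genotype), transgenic in red and wild type in blue; lines join the geometric mean of the TAC arrays to the sham array. The lines of Slc9a3, Ttr and Cideb are near level, while for Alx4 the transgenic TAC arrays lie above and the wild-type TAC arrays below their sham array.

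Genes that work with the 4 were examined from lists of relatives and partners. Of 24 sodium-proton exchangers and Slc9a3 partners, 20 had a probe and 13 were bright enough to be tested, and 0 passed between genotypes in limma in either direction (4 at an unadjusted p under 0.05; background 0.663% called higher, 0.287% lower and 11.5% at an unadjusted p under 0.05). The median log2 difference was 0.02, beside -0.01 over all tested genes. The related exchanger gene Slc9a2 read 115, 107 and 88.7 on transgenic sham and TAC arrays, against 228, 134 and 138 on wild-type sham and TAC arrays. All its transgenic arrays lay below all wild-type arrays, as for 8.55% of tested genes, with a log2 difference of -0.65 ± 0.15 (SE, limma adjusted p = 0.111) that passed at -0.77 (adjusted p = 0.0431) without the first transgenic TAC array. Slc26a6, an anion exchanger gene, was at -0.55 ± 0.18 (limma adjusted p = 0.263), and Car4, a membrane-bound carbonic anhydrase gene, at -0.41 ± 0.16 (adjusted p = 0.389). Ahcyl1, whose product IRBIT binds and activates NHE3, was at 0.52 ± 0.19 (limma adjusted p = 0.306), and passed at 0.71 (adjusted p = 0.0320) without the second transgenic TAC array. In this list all transgenic arrays lay below all wild-type arrays for 3 of 13 tested genes (8.55% of all tested genes), Slc9a2, Slc26a6 and Car4. They lay above them for 1 (7.59% of all tested genes), Ahcyl1. Slc9a3r1, the NHERF1 scaffold that tethers NHE3 to the cytoskeleton, averaged 200.4 ± 17.8 in transgenic and 201 ± 10.3 in wild-type hearts (SD, n = 3 each).

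Of 24 genes for transthyretin's ligands and for thyroid hormone and retinol handling, 21 had a probe, 7 were tested and 0 passed in limma (2 at an unadjusted p under 0.05; 0.949% and 11.5% of all tested genes). Their median log2 difference was 0.05. The value farthest from it was that of Urah, which encodes a hydrolase of the urate pathway that is transthyretin's close relative in sequence. Urah read 320 in transgenic sham and 193 and 116 in transgenic TAC hearts, against 107 in wild-type sham and 62.1 and 90.1 in wild-type TAC hearts. Every transgenic array lay above every wild-type array, by a small margin between the second transgenic TAC and the wild-type sham array, and the log2 difference was 1.19 ± 0.23 (SE, limma adjusted p = 0.0524). Its adjusted p was 0.0258 with no filter on dim probes and 0.00405 without the second transgenic TAC array. Rbp4, the retinol-binding protein that transthyretin carries in plasma, was below the filter at 45.3 ± 0.91 in transgenic and 47.2 ± 1.16 in wild-type hearts (SD, n = 3 each). The thyroid hormone receptor gene Thra was at -0.16 ± 0.11 (limma adjusted p = 0.648).

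Of 24 paired-type homeobox genes and limb regulators, 19 had a probe, 7 were tested and 0 passed in limma (1 at an unadjusted p under 0.05; 0.949% and 11.5% of all tested genes), with a median log2 difference of 0.10. The 1 gene was Phox2a, a homeobox gene of autonomic neurons, at -0.31 ± 0.12 (SE, limma adjusted p = 0.390) with overlapping arrays. Alx1, of the same family as Alx4, was below the filter at 51.9 ± 2.79 in transgenic and 50.7 ± 4.35 in wild-type hearts (SD, n = 3 each). Prrx1, a homeobox gene of limb and connective tissue mesenchyme, was at 0.10 ± 0.14 (limma adjusted p = 0.854), and Gli3, an effector of hedgehog signalling that acts with Alx4 in the limb bud, at 0.10 ± 0.17 (adjusted p = 0.877).

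Of 23 CIDE family and lipid droplet genes, all 23 had a probe, 19 were tested and 0 passed in limma (4 at an unadjusted p under 0.05; 0.949% and 11.5% of all tested genes), with a median of -0.13. Cidea, the CIDE family member of brown fat, read 735, 887 and 715 on transgenic sham and TAC arrays, against 848, 829 and 1060 on wild-type sham and TAC arrays. These ranges overlapped, and the log2 difference was -0.23 ± 0.15 (SE, limma adjusted p = 0.641). Cidec was below the filter at 46.0 ± 3.20 in transgenic and 45.5 ± 1.11 in wild-type hearts (SD, n = 3 each). Dgat2, which makes triglyceride, was at -0.48 ± 0.16 (limma adjusted p = 0.285), and Plin5, the perilipin of oxidative muscle, at -0.41 ± 0.13 (adjusted p = 0.263). Mttp, which works beside Cideb in lipoprotein assembly, was at 0.17 ± 0.10 (adjusted p = 0.597). All transgenic arrays lay above all wild-type arrays for 2 of the 19 tested genes, Mttp among them (7.59% of all tested genes). They lay below them for 3, Plin5 among them (8.55%).

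Markers of the tissues in which the 4 genes are usually expressed were mostly too dim to test. Of 14 liver markers with a probe 5 were tested, and these summed to intensities of 332 to 393 on transgenic and 352 to 375 on wild-type arrays. Cyp3a11 was at -0.17 ± 0.09 (SE, limma adjusted p = 0.509), Ahsg at -0.11 ± 0.15 (adjusted p = 0.848) and Apoa2 at 0.11 ± 0.13 (adjusted p = 0.812). For Cyp3a11 all transgenic arrays lay below all wild-type arrays, as for 8.55% of tested genes. Albumin, which defines hepatocytes and is secreted alongside transthyretin, was below the filter at 39.7 ± 4.27 in transgenic and 40.6 ± 1.60 in wild-type hearts (SD, n = 3 each), and Apoa1 at 50.2 ± 5.78 and 47.9 ± 3.31. Of 15 intestinal markers 3 were tested, and they summed to 592 to 870 on transgenic and 878 to 1091 on wild-type arrays. Lgals4, an intestinal lectin gene, made up most of that sum and had means of 545 ± 129 in transgenic and 809 ± 107 in wild-type hearts (SD, n = 3 each; -0.59 ± 0.14, limma adjusted p = 0.105). All its transgenic arrays lay below all wild-type arrays, as for 8.55% of tested genes. Cdx1 was at 0.14 ± 0.13 (limma adjusted p = 0.735) and Fabp6 at -0.09 ± 0.10 (adjusted p = 0.795). Epcam was below the filter at 41.5 ± 1.15 in transgenic and 41.8 ± 1.52 in wild-type hearts. Villin (Vil1), the actin bundler of the brush border in which NHE3 sits, was below the filter too, at 57.0, 57.2 and 57.1 on transgenic sham and TAC arrays, against 42.7, 45.2 and 47.9 on wild-type sham and TAC arrays, and was not tested. Its transgenic values did not overlap the wild-type values and lay under the gauge of background. Vil1 was named after its values were seen, and no share of such separations among genes below the filter is given here. Other listed genes below the filter separated too, in both directions. Rax, a homeobox gene, was higher on all transgenic arrays (59.4 ± 4.39 against 49.3 ± 0.21, SD, n = 3 each). Apoc3, a liver marker, was lower on all of them (45.3 ± 1.96 against 50.4 ± 0.79), as was Rdh10. Nothing is therefore read from the separation of Vil1.

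Of 12 kidney tubule markers 3 were tested (612 to 640 summed on transgenic and 525 to 659 on wild-type arrays), and Cdh16, a kidney cadherin, was at 0.27 ± 0.10 (limma adjusted p = 0.305). All transgenic arrays of Cdh16 lay above all wild-type arrays, as for 7.59% of tested genes. Of 6 choroid plexus markers with a probe only F5 was tested, at -0.35 ± 0.11 (limma adjusted p = 0.215) with 46.9 to 55.4 on transgenic and 62.2 to 73.8 on wild-type arrays. Of 12 limb and craniofacial mesenchyme markers 5 were tested (780 to 1055 summed on transgenic and 762 to 993 on wild-type arrays). Twist1 was at 0.18 ± 0.17 (limma adjusted p = 0.744), Shox2 at 0.12 ± 0.10 (adjusted p = 0.700) and Hoxa13 at -0.12 ± 0.10 (adjusted p = 0.729). Hoxa13 had all transgenic arrays below all wild-type arrays, as for 8.55% of tested genes. In none of these 5 marker lists did a gene pass between genotypes in limma, and the number at an unadjusted p under 0.05 was 0 for liver, 1 for intestine, 1 for kidney tubule, 1 for choroid plexus and 0 for limb mesenchyme, where 11.5% of all tested genes reached it. In heart tissue, more cells of a type and more RNA per cell cannot be told apart.

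The RefSeq gene table (GRCm38.p6) places Slc9a3 on chromosome 13, Ttr on chromosome 18, Alx4 on chromosome 2 and Cideb on chromosome 14, so no 2 of them share a chromosome. The 3 protein-coding genes on each side of each of the 4 in that gene order gave 24 neighbours, of which 23 had a probe and 18 were tested. None passed between genotypes in limma (smallest adjusted p = 0.110; 3 of 18 at an unadjusted p under 0.05; 0.949% and 11.5% of all tested genes), and their log2 differences ran from -0.63 to 0.55 with a median of -0.05. Next to Slc9a3, Exoc3, a subunit of the exocyst complex, stood at 0.08 ± 0.15 (limma adjusted p = 0.892), and Ahrr, a repressor of the aryl hydrocarbon receptor, at 0.55 ± 0.13 (adjusted p = 0.110). The desmosomal gene Dsg2 beside Ttr was at -0.25 ± 0.18 (adjusted p = 0.655), and B4galt6 on the other side at 0.32 ± 0.22 (adjusted p = 0.639). Beside Alx4, Cd82 stood at 0.06 ± 0.15 (adjusted p = 0.925) and Ext2, a heparan sulfate polymerase, at -0.17 ± 0.13 (adjusted p = 0.693). The transgenic arrays lay above all wild-type arrays for 3 of the 18 neighbours (7.59% of all tested genes), Trappc8 beside Ttr and Ltb4r1 and Nop9 beside Cideb, and below them for 2 (8.55%), Accs beside Alx4 and Rabggta beside Cideb. Trappc8 was at 0.28 ± 0.14 (limma adjusted p = 0.512) and Accs at -0.07 ± 0.13 (adjusted p = 0.892). Ltb4r1, a leukotriene receptor gene, read 89.5, 91.3 and 83.0 on transgenic sham and TAC arrays, against 72.6, 68.7 and 59.5 on wild-type sham and TAC arrays (0.40 ± 0.11, limma adjusted p = 0.152). Nop9 was at 0.21 ± 0.12 (adjusted p = 0.590), and Rabggta read 233, 244 and 274 on transgenic sham and TAC arrays, against 435, 337 and 395 on wild-type ones (-0.63 ± 0.16, adjusted p = 0.131).

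**Figure D4:**
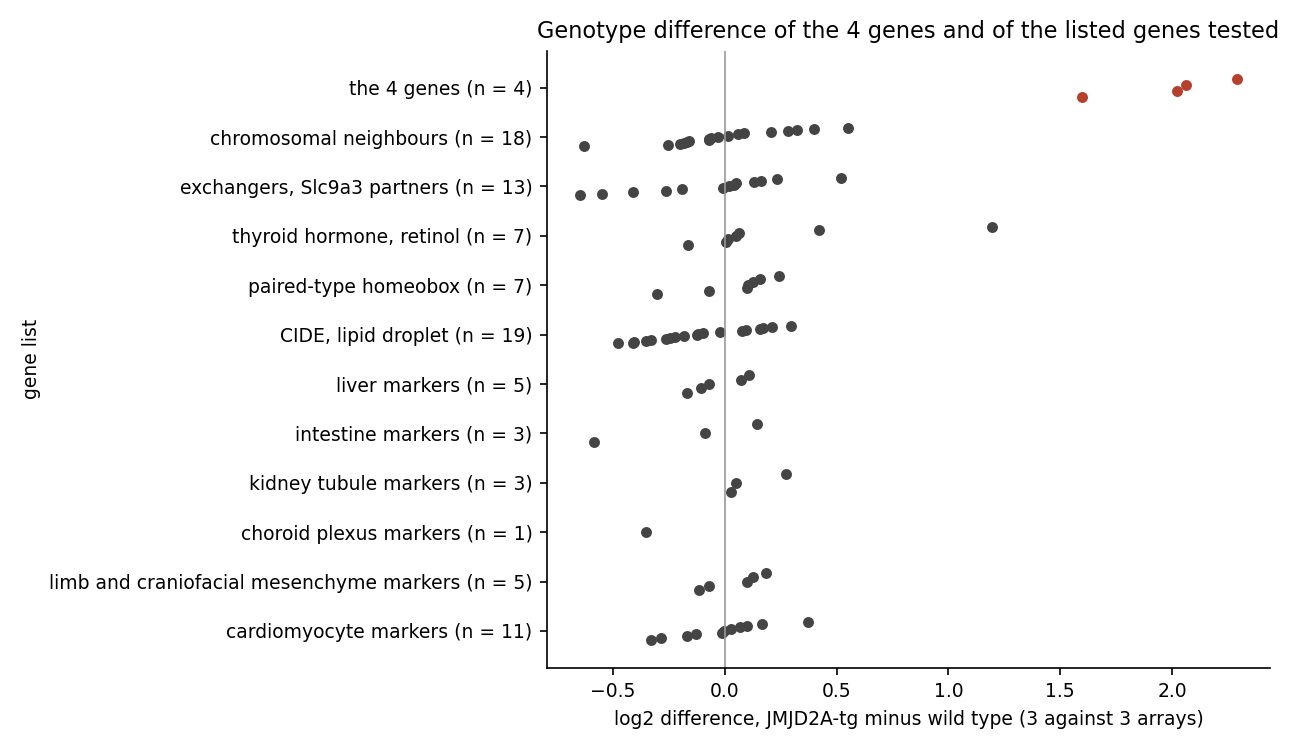
Transgenic minus wild-type difference in log2 intensity (x axis) for the 4 genes (red) and for the tested genes of each list (grey, 1 point per gene). The 4 genes lie at 1.60 to 2.29, and of the other points only Urah (1.19) lies above 1.

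The genes most like each of the 4 over the 6 arrays were found by Pearson's r of log2 intensity, a measure that the genotype difference dominates and that is given without a test. For Slc9a3 these were Mns1 (r = 0.997), Dusp4 (0.996) and Gpr137c (0.993). Dusp4, a phosphatase of MAP kinases, read 158, 180 and 181 on transgenic sham and TAC arrays, against 78.6, 85.0 and 81.4 on wild-type sham and TAC arrays. For Ttr they were Ydjc (0.995), Guca2a (0.995) and Gxylt1 (0.987). Guca2a encodes guanylin, a peptide of the intestinal epithelium, and read 72.6, 79.0 and 70.7 on transgenic sham and TAC arrays, against 50.3, 54.3 and 52.0 on wild-type sham and TAC arrays. For Alx4 they were Myl1 (0.999), Ahcy (0.992) and Mfap1b (0.992). Myl1, a myosin light chain of fast skeletal muscle and of embryonic muscle, read 18525 in transgenic sham and 21703 and 22109 in transgenic TAC hearts, against 12679 in wild-type sham and 11554 and 10770 in wild-type TAC hearts, with the same order of the 6 arrays as Alx4. For Cideb they were Josd2 (0.993), Nrxn3 (0.992) and Stau2 (0.990). Nrxn3, a synaptic adhesion gene, read 1139, 840 and 718 on transgenic sham and TAC arrays, against 54.2, 53.4 and 45.7 on wild-type sham and TAC arrays. A high r does not mean a large difference. The log2 genotype differences of these alike genes ran from 0.063 for Gpr137c (60.3 to 60.8 on transgenic and 57.6 to 58.3 on wild-type arrays) to 4.11 for Nrxn3.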

How the data were processed

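Gene expression was measured in heart RNA on 6 Illumina arrays. Extraction used Trizol and DNase I, and the RNA was copied into biotinylated cRNA, per the labels' protocols. The values the authors deposited are linear intensities, 1 for each probe on each array, between 30.8 and 25873. Once sorted, each column lay within 0.00644 (log2) of the mean of the 6 columns, a closeness that quantile normalization would leave. Software and background correction are not stated in the sources used here. No further normalization was applied: intensities under 32 (12 values) were raised to that floor before taking log2. Of 45281 probes, 34885 had 1 gene symbol, 18 several and 10378 none in the platform annotation; symbols were updated by gene identifier through the RefSeq table of GRCm38.p6 (34807 matched). Each gene was represented by its brightest probe (mean log2), and 11167 genes above the 50th percentile of annotated probes (intensity 58.7) were tested. Linear models were fitted with limma 3.58.1 (lmFit, then eBayes with a trend on intensity; R 4.3.3), with Benjamini-Hochberg adjustment over all tested genes and a threshold of 0.05: surgery plus genotype (3 residual degrees of freedom), and an interaction fit (2). The genotype comparison of the surgery plus genotype fit was tested on simulated data with planted differences. The TAC comparison, the interaction fit, the probe choice and the filter were not. The number of arrays limits the precision. Named genes are the 4 genes, their partner lists, 3 neighbours a side, the 3 most alike genes and at most 3 tested genes of a marker list by size. Alb, Apoa1, Epcam and Vil1 were named after their values were seen. Apoc3, a marker, and Rax and Rdh10, of the partner lists, were named for the separation of their arrays. The 4 genes and the lists were chosen with earlier results of these data known. Alternatives were the filter, background subtraction, scaling, probe averaging, no trend, Xist as a covariate, single arrays left out and a replicate block among the TAC arrays; leaving out both arrays of low Xist, and the TAC arrays alone with no block, were added after seeing the data.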

Additional observations from a re-analysis of the deposited data

Results flagged for a closer look

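Alx4 was picked out because both transgenic TAC arrays lay above the transgenic sham array while both wild-type TAC arrays lay below the wild-type sham array. The difference between the TAC responses was 1.06 on the log2 scale (SE 0.31) and did not pass after adjustment over all genes (limma, adjusted p = 1.00). Left out one at a time, the TAC arrays gave 0.99 to 1.13. No other pattern among the 4 genes met the same criteria, and groups of 1 or 2 arrays are too small to look for single outlying arrays.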

How the results depend on the processing

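The transgenic minus wild-type differences of the 4 genes were above 0 in each of the 17 alternative settings for Slc9a3 and Cideb and each of the 16 in which Ttr and Alx4 could be evaluated, the last 2 not being above a filter at the 75th percentile. The genes were chosen for that direction, so the sign was largely fixed by the choice and is not a test of it. Nor are the settings separate checks. Changing the filter, scaling, repeating quantile normalization or dropping the trend returned the main differences to within rounding, where a gene could be evaluated. Subtracting the 5th percentile of each array (floor 4) gave 3.12 for Slc9a3, 3.28 for Ttr, 3.24 for Alx4 and 2.19 for Cideb; averaging probes gave 1.15 for Slc9a3 and 0.72 for Alx4, which includes their flat dim probes. With 1 array left out the ranges were 2.25 to 2.33 for Slc9a3, 1.88 to 2.24 for Ttr, 1.88 to 2.37 for Alx4 and 1.53 to 1.71 for Cideb. Leaving out either sham array gave the same differences as the TAC arrays alone, since the surgery term takes up the remaining sham array. For the 4 genes these settings are therefore 1 comparison. The TAC numbers of the titles are shared by the genotypes, and the deviations of same-numbered arrays correlated at r = -0.03 over genes. That single value, from 2 TAC arrays per genotype, cannot decide whether same-numbered arrays were handled together. With that number as a replicate block the TAC arrays alone gave 2.37 for Alx4 and 61 genes called, against 2.37 and 25 without the block.

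Over all genes, 106 were called between genotypes. This was 44 with the 75th percentile filter, 50 averaging probes, 54 with Xist as a covariate, 0 without both arrays of low Xist (limma; 283 at an unadjusted p under 0.05, against 1289 with all arrays), and 24 to 473 with 1 array left out: 24 without wild-type sham or transgenic sham, 30 and 32 without the first and second wild-type TAC array, and 473 without the second transgenic TAC array. For TAC against sham 1 gene was called, 2 with no filter and with the 75th percentile filter, 0 with no intensity trend, with Xist as a covariate or without both arrays of low Xist (limma; 1041, 653 and 325 at an unadjusted p under 0.05), and 0 to 37 with 1 array left out, the 37 without the first transgenic TAC array. For the difference of the TAC responses 0 were called, 5 with Xist as a covariate and 0 to 1 with a TAC array left out. The cause was not tested.

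TAC minus sham values that changed sign, none of them called, were Alx4 at -0.24 with background subtracted, -0.068 with Xist as a covariate, -0.40 without both arrays of low Xist and -0.47 to 0.59 with 1 array left out, Ttr at -0.094 to 0.17 and Cideb at -0.19 to 0.025 with 1 array left out. The ends of the ranges for Alx4 and Cideb are their within-genotype differences given above, since leaving out 1 sham array leaves only the other genotype's contrast. The -0.40 for Alx4 is the first wild-type TAC array minus the wild-type sham array. Of the differences of the TAC responses, Ttr turned to -0.30 and Cideb to 0.12 with Xist as a covariate, and Ttr ran from -0.27 to 0.35 with 1 TAC array left out. Single calls of partner genes appeared for Slc9a2, Ahcyl1 and Urah as given above. Signal over background limits Ttr and Alx4 in wild-type hearts and all dim markers.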
